A study of Arabidopsis thaliana with 24 samples.

Results

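The miRNAs of the Arabidopsis mutants mkkk17 and mkkk18 were compared in seedlings that had received no ABA. The comparison took the 3 mkkk17 mock and the 3 mkkk18 mock libraries, chosen by their labels, which are 6 of the 24 small RNA libraries of the series, and all 350 listed mature sequences. The 24 libraries came from 4 genotypes, WT Col-0, abi1td, mkkk17, and mkkk18, each mock-treated or given 100 µM ABA for 4 h as 2-week-old whole seedlings, with 3 biological replicates in each of the 8 groups. The mkkk17 and mkkk18 plants are T-DNA insertion lines, 1 line for each kinase gene, so the effect of a line and of its gene cannot be told apart. Mock-treated seedlings of both lines received the mock solution for the same 4 h at the same age. The tables list miRNAs and no mRNAs, so the transcripts of the 2 interrupted kinase genes could not be checked in these libraries.

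MAPKKK17 and MAPKKK18 are closely related MAP kinase kinase kinases of the ABA pathway. Both are regulated by the core of that pathway, and the activity of MAPKKK18 is regulated by its phosphatase ABI1. ABA signaling passes through the 2 kinases to the kinase MKK3 and on to MAP kinases. Plant miRNAs are cut from hairpin precursors by DICER-LIKE1 as a duplex of a 5p and a 3p strand, 1 of which is loaded into ARGONAUTE1, where it guides the cleavage or the translational repression of mRNAs with near-perfect sites. The question was whether these 2 kinase mutants differ in their miRNAs at rest.

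The answer depended on whether the values were taken as deposited or were rescaled between libraries. As deposited, in RPM (reads scaled to a common library total), all 126 tested miRNAs had a negative estimate, with a median log2 fold change (mkkk17 minus mkkk18) of -1.001, and 13 of them passed the test. After rescaling, the median was 0.01, 64 estimates were positive and 62 negative, and none passed. The strongest single difference after rescaling was that of miR167c-5p, a regulator of auxin response factors, which was at 0.366 of its mkkk18 level in mkkk17 (log2 fold change -1.45, 95% interval -2.22 to -0.68) and which, among the alternatives tried after rescaling, passed when more libraries entered the fit or when the first mkkk17 replicate was left out.

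Mature sequences of the 10 miRNAs with the smallest p-values after rescaling are printed here because the comparison turns on them, with 4 partners against which they were measured within a library (miR167a-5p, miR167c-3p, miR2111a-5p, and miR396b-5p) and with miR399f, whose gene neighbours that of miR399d. They are given 5′ to 3′ as deposited, written as RNA, with the seed (bases 2 to 8) in capitals.
miR167c-5p: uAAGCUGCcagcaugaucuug
miR167c-3p: uAGGUCAUgcugguaguuucacc
miR167a-5p: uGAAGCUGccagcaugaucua
miR164a: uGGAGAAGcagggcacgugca
miR164b-3p: cAUGUGCCcaucuucaccauc
miR395b: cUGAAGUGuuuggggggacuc
miR399d: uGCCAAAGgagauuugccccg
miR399f: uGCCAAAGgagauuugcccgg
miR2111b-3p: aUCCUCGGgauacaguuuacc
miR2111a-5p: uAAUCUGCauccugagguuua
miR396b-3p: gCUCAAGAaagcugugggaaa
miR396b-5p: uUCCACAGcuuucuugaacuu
miR163: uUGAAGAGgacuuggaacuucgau
miR860: uCAAUAGAuuggacuauguau
miR5026: aCUCAUAAgaucgugacacgu
No seed was shared among the 10, and miR399d and miR399f share theirs with 3 further listed entries, so that 5 of the 350 sequences carry GCCAAAG. The seed GGAGAAG of miR164a occurs in 3 listed entries, UGAAGUG of miR395b in 2, and UCCUCGG of miR2111b-3p in 2, while the other 6 of the 10 had a seed that no other listed entry has. The capitals of miR167c-5p and miR167a-5p differ, although the 2 mature sequences overlap over most of their length, and reads of near-identical entries may have been split between them by the authors' counting.

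The summed RPM of all listed miRNAs were lower in mkkk17 on average. The 3 mkkk17 mock libraries held 16514.9, 27392.5, and 41754.1 RPM, and the 3 mkkk18 mock libraries held 63385.3, 57613.4, and 41370.6 RPM. The third mkkk17 library lay just above the third mkkk18 library, so the groups overlapped. Means were 28553.8 ± 12659.6 and 54123.1 ± 11414.8 RPM (SD, n = 3 each), a ratio of 0.528 (exact permutation test, two-sided, p = 0.2; the smallest p that 3 against 3 allow is 0.1). In whole seedlings, fewer cells that carry a miRNA and less of it per cell cannot be told apart. WT Col-0 mock libraries held 43059.2, 58405.2, and 69409.2 RPM, all above the 3 mkkk17 libraries and within or above the mkkk18 range. Without the third mkkk17 library or without the third mkkk18 library the groups did not overlap, and the ratio was 0.406 and 0.472. With the sequences of 21 nt alone, the length of most plant miRNAs, the 3 mkkk17 libraries lay below the 3 mkkk18 libraries (23809.8 ± 9971.4 against 46044.8 ± 9833.2 RPM, n = 3 each; exact permutation test, p = 0.1).

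Sequencing depth moved with genotype in the opposite direction. The mkkk17 mock libraries had 13850624, 14199469, and 13539134 clipped reads and the mkkk18 mock libraries had 11637334, 10664785, and 11811749, with no overlap. At these depths 3 reads are worth from 0.211 to 0.222 RPM in mkkk17 and from 0.254 to 0.281 RPM in mkkk18, a floor that covers counting error only. Depth cannot be told apart from genotype here, and its part in the lower RPM was not tested.

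**Figure D1:**
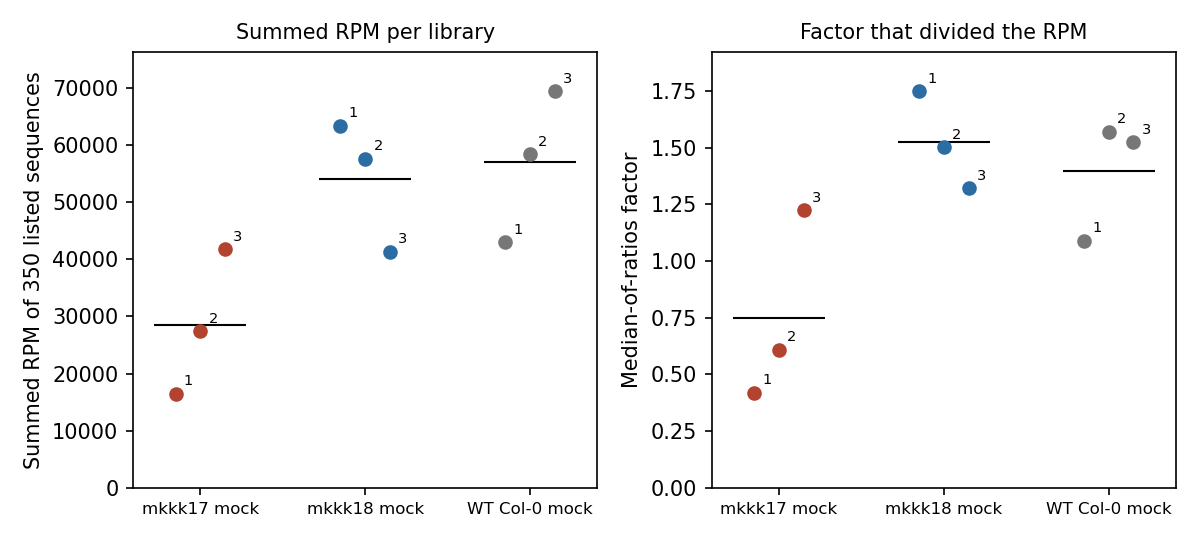
Summed RPM of the 350 listed sequences (left) and the median-of-ratios factor by which the RPM of a library were divided (right), with 1 point for each library, its replicate number beside it, and the group mean as a line. The first and second mkkk17 mock libraries have the lowest sums (16514.9 and 27392.5 RPM) and the smallest factors (0.42 and 0.61) of the 9 libraries drawn.

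The entries above 0 RPM in all 3 libraries of a group were more numerous in mkkk18 than in mkkk17, although single libraries overlapped (215 entries above 0 in the third mkkk17 library and 202 in the second mkkk18 library). There were 160 such entries of 350 in mkkk17 and 188 in mkkk18. Of these, 3 met the criterion only in mkkk17 and 31 only in mkkk18, and 102 entries were at 0 in all 6 libraries. Without the first mkkk17 library, the one with the lowest sum, the mkkk17 count was 183, and 11 entries met the criterion only in mkkk17 and 16 only in mkkk18. At a minimum of 1 RPM in each library the counts were 88 and 122, and all 88 were among the 122. In 3 cases a miRNA was at 0 in all 3 mkkk17 libraries and above 0 in all 3 mkkk18 libraries: miR8182 (0.4, 0.3, and 0.5 RPM in mkkk18), miR865-5p (0.2, 0.2, and 0.3 RPM), and miR3434-5p (0.1 RPM in each). A count of 0 allows a level of up to 3 reads, which is at most 0.222 RPM in mkkk17. The mkkk18 values of miR8182 lay above that limit, those of miR865-5p on both sides of it, and those of miR3434-5p below it, and no fold is given against a group listed at 0. No miRNA showed the opposite pattern.

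A small set of entries made up most of each library, and their shares were alike in the 2 mutants. The 12 largest took 89.7% ± 1.59 of the summed RPM in mkkk17 and 89.6% ± 1.59 in mkkk18 (SD, n = 3 each), and for none of the 12 did the shares of the groups separate. The largest, miR166a-3p, an entry that 7 miRNA names share and that targets class III HD-ZIP transcription factors of leaf and vascular patterning, took 44.6%, 41.3%, and 36.2% in mkkk17 and 36.1%, 39.2%, and 35.9% in mkkk18. Next came miR158a-3p with 13.1% ± 3.63 and 12.4% ± 0.594 of the sum (SD, n = 3 each).

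With RPM as deposited, all differences ran in 1 direction. A miRNA was tested if its mean over the 6 libraries reached 1 RPM, which 126 did. Of these, 56 had all 3 mkkk17 libraries below all 3 mkkk18 libraries (44.4% of those tested), none had them above, and 60 had an unadjusted p-value under 0.05. By limma with Benjamini-Hochberg adjustment 13 were called lower in mkkk17 (10.3%) and 0 higher. In order of p-value these were miR167c-5p, miR860, miR846-3p, miR167c-3p, miR164a, miR846-5p, miR162a-5p, miR5026, miR164b-3p, miR822-5p, miR166e-5p, miR829-5p, and miR842. Both arms of the miR167c hairpin and of the miR846 hairpin were among them, as were the 5p entry and the 3p arm of MIR164b. Of the 13, miR162a-5p (means of 0.43 RPM in mkkk17 and 1.63 RPM in mkkk18) and miR842 (0.87 and 2.63 RPM) reached the minimum through mkkk18. So did some of the 56 without overlap, among them miR160c-3p, miR164c-3p, miR829-3p.1, and miR169f-3p, with mkkk17 means of 0.57 to 0.83 RPM. For such entries a lower mkkk17 level was favored by the filter itself. For miR167c-5p the deposited values were 0.8, 0.5, and 3.3 RPM in mkkk17 and 8.8, 9.1, and 6.9 RPM in mkkk18 (limma log2 fold change -2.35, SE 0.54, adjusted p = 0.00507), and the groups did not overlap. For miR846-3p they were 11.7, 45.2, and 122.1 RPM against 225.4, 175.4, and 102.7 RPM (limma log2 fold change -1.97, SE 0.56, adjusted p = 0.0253), and the third mkkk17 library lay above the third mkkk18 library.

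The count of 13 rested on single libraries. Without the third mkkk17 library, the one with the highest sum of its group, 107 of 125 tested miRNAs were called, all lower in mkkk17 (85.6%). Without the first mkkk17 library 3 were called, without the second 0, and 0, 0, and 1 without the first, the second, and the third mkkk18 library.

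Rescaling divided each library by a median-of-ratios factor over the miRNAs seen in each of the 6 libraries. The factors were 0.42, 0.61, and 1.22 for mkkk17 and 1.75, 1.501, and 1.32 for mkkk18, a mean difference of -1.16 on the log2 scale (mkkk17 minus mkkk18), and all values below are relative to it. This scaling takes the typical miRNA to be equal in both mutants, so a difference that all miRNAs share cannot show after it.

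**Figure D2:**
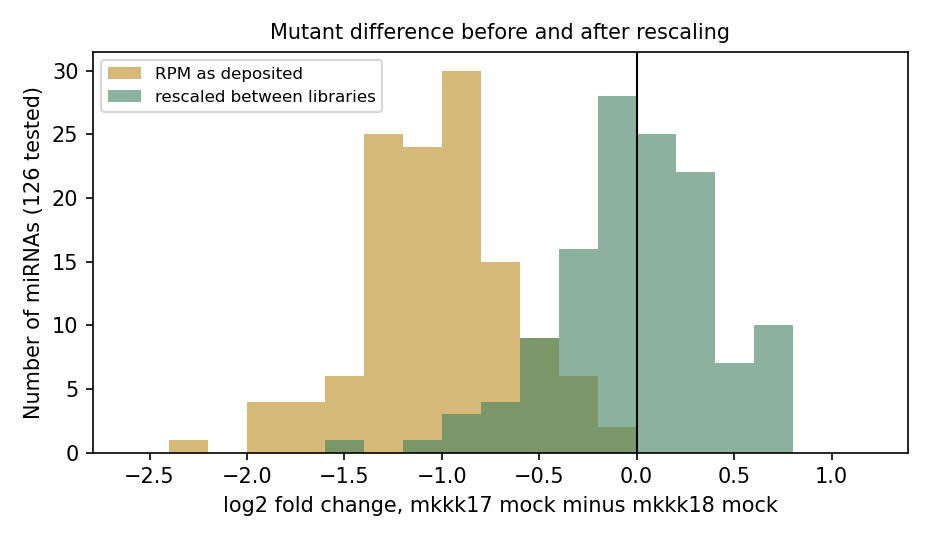
Number of miRNAs (126 tested) by log2 fold change of mkkk17 mock minus mkkk18 mock, with RPM as deposited and after rescaling between libraries. As deposited all values lie below 0 with a median of -1.001, and after rescaling 64 lie above and 62 below 0.

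After rescaling, limma called 0 of the 126 miRNAs, and 11 had an unadjusted p-value under 0.05 (8.73%). In 22 the libraries of the 2 mutants did not overlap (17.5%), with mkkk17 higher in 14 (11.1%) and lower in 8 (6.35%). Estimates ran from -1.45 to 0.77, and 100 of the 126 lay within 0.5 of 0. The precision of 3 against 3 libraries set what could be seen, with a median SE of 0.28 on the log2 scale and 95% intervals that reached, in the median, 0.65 to either side of the estimate. In 75 of the 126 the interval lay wholly between -1 and 1 (59.5%), so that on the fitted scale a change by a factor of 2 was outside it. In the other 51 a change of that size was not excluded. The fitted scale, log2(scaled RPM + 0.5), understates fold changes of low miRNAs, so for these a factor of 2 in RPM may lie inside the interval.

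The first mkkk17 library stood apart from the other 5. Its mean distance to the other libraries of its group was 9.20, against 7.03 and 7.50 for the other mkkk17 libraries and 4.18 to 5.26 for those of mkkk18 (Euclidean distance of log2 scaled RPM over the tested miRNAs). Its deviations from the mean of the 6 libraries climbed by 0.33 log2 units for each 10% of GC in the mature sequence, whereas this slope was between -0.11 and -0.00 in the other 5. Without that library 4 of 131 tested miRNAs were called (3.05%), all lower in mkkk17: miR167c-5p at -1.60 (limma adjusted p = 0.0214), miR167c-3p at -1.11 (0.0214), miR164a at -1.09 (0.0214), and miR164b-3p at -0.87 (0.0452). Leaving out any other single library gave 0 calls by limma, with 5 to 19 miRNAs at an unadjusted p-value under 0.05. The part of that GC slope in the values of single miRNAs was tested only by the GC correction, which gave 0 calls. Between the mutants the mean distance was 6.85, below the 7.91 within mkkk17 and above the 4.55 within mkkk18. The third mkkk17 library lay closer to the first and second mkkk18 libraries (4.44 and 5.12) than to the others of its group (9.67 and 5.33).

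**Figure D3:**
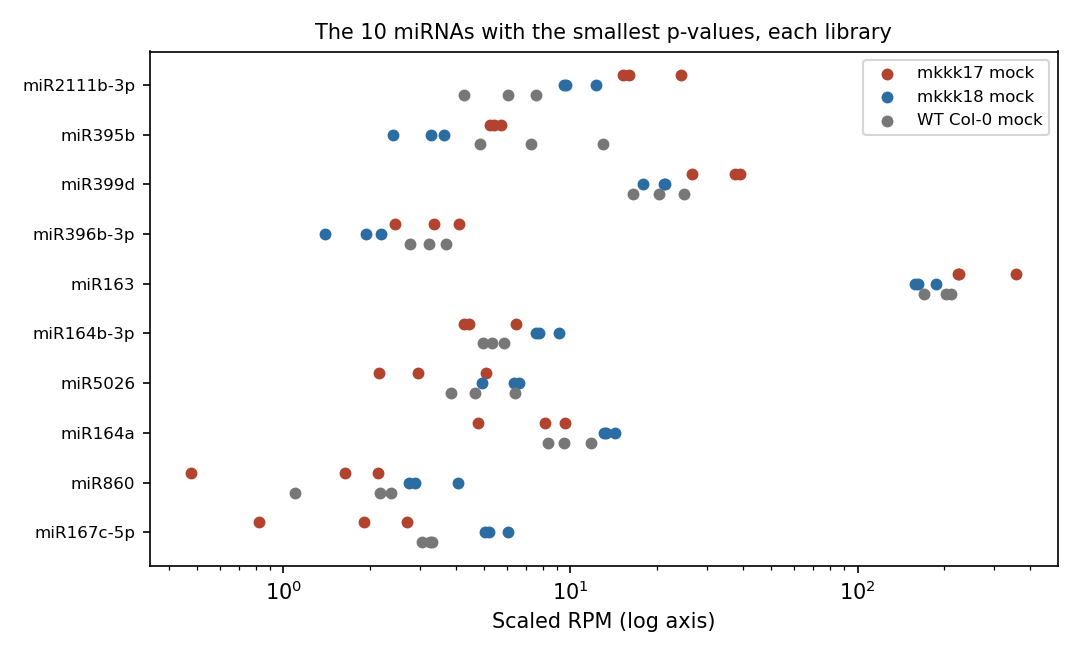
Scaled RPM, on a log axis, of the 10 miRNAs with the smallest p-values after rescaling, with 1 point for each mkkk17 mock, mkkk18 mock, and WT Col-0 mock library. For 9 of the 10 the mkkk17 and mkkk18 points do not overlap, miR5026 being the exception, and none of the 10 passed the test.

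Among the miRNAs of the auxin pathway, miR160 and miR167 target auxin response factors and miR393 targets the TIR1/AFB auxin receptors. Of these, 11 of 11 listed entries were tested, 6 had positive and 5 negative estimates, with a median of 0.06 beside 0.01 over all tested, and 2 did not overlap between the mutants, both lower in mkkk17, beside 6.35% lower and 17.5% in either direction over all tested. Of these 2, miR160c-3p was near the floor, at 0.3, 0.5, and 1.1 RPM as deposited in mkkk17 against 2.0, 2.0, and 1.7 RPM. Its mkkk17 mean of 0.63 RPM lay under the minimum of 1 RPM, which it reached through mkkk18. Scaled miR167c-5p was at 1.91, 0.82, and 2.70 in mkkk17 and at 5.03, 6.06, and 5.22 in mkkk18, with WT Col-0 between them at 3.03, 3.25, and 3.28. Every mkkk17 library lay below every mkkk18 library, with the lowest deposited value, 0.5 RPM, above the 0.211 RPM of 3 reads in that library (limma log2 fold change -1.45, SE 0.34, adjusted p = 0.284). In a fit of the 12 mock libraries of all 4 genotypes its change was -1.50 and passed (limma adjusted p = 0.00843), as it did in a fit of all 24 libraries (-1.50, adjusted p = 0.0124), where it was the only miRNA called of 128 (0.781%) and of 129 (0.775%).

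The opposite arm of that hairpin, miR167c-3p, was at 35.5, 17.4, and 17.6 scaled RPM in mkkk17 and at 27.7, 40.3, and 46.8 in mkkk18. Here the first mkkk17 library lay within the mkkk18 range and the other 2 lay below it (limma log2 fold change -0.74, SE 0.34, adjusted p = 0.446). Both arms match MIR167c (AT3G04765) on the minus strand of chromosome 3 in TAIR10.1, the 5p arm from 1306750 to 1306770 and the 3p arm from 1306630 to 1306652. The more abundant miR167a-5p, whose sequence is near-identical to that of miR167c-5p, was at 368, 315, and 322 against 333, 291, and 337 scaled RPM, and its groups overlapped (log2 fold change 0.06). A ratio within a library needs no scaling between libraries, and the log2 ratio of miR167c-5p to miR167a-5p was -6.90, -7.59, and -6.70 in mkkk17 and -5.97, -5.51, and -5.91 in mkkk18. That difference of -1.26 separated the groups (exact permutation test, two-sided, p = 0.1, n = 3 each, the smallest possible), for a pair that was added after its values had been seen. The pairs miR164a over miR164c-5p and miR846-3p over miR842, added in the same way, overlapped between the mutants (exact permutation p = 0.3 and 0.7). So did the planned arm ratio, miR167c-3p over miR167c-5p (difference 0.48, exact permutation p = 0.3). In miR167d, a further family member, the estimate was positive (0.68, limma adjusted p = 0.561) and the groups overlapped.

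miR164 targets NAC transcription factors such as CUC1 and CUC2, which set organ boundaries. Scaled miR164a, a sequence that MIR164a and MIR164b share, was at 9.54, 4.76, and 8.17 in mkkk17 and at 13.0, 14.3, and 13.2 in mkkk18, and WT Col-0 was at 11.7, 8.34, and 9.51. The mkkk17 libraries lay below those of mkkk18 without overlap (limma log2 fold change -0.86, SE 0.28, adjusted p = 0.384). Its 3p partner from MIR164b, miR164b-3p, was at 6.44, 4.26, and 4.41 against 9.09, 7.79, and 7.57 scaled RPM, likewise without overlap (-0.66, SE 0.24, adjusted p = 0.408). The MIR164b precursor (AT5G01747) lies on chromosome 5 of TAIR10.1, with the 5p match from 287586 to 287606 and the 3p match from 287716 to 287736. A second match of miR164a, to MIR164a, is on chromosome 2 from 19520770 to 19520790.

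The other transcription factor regulators in that group were miR169 (NF-YA), miR170 and miR171 (GRAS factors), miR396 (growth-regulating factors), and miR824 (AGAMOUS-LIKE16). Together with miR164 they gave 19 tested entries of 24, 5 positive and 14 negative, with a median of -0.17, and 3 without overlap (17.5% over all tested), 1 of which had mkkk17 higher. That one was miR396b-3p, the less abundant strand of its hairpin, at 3.34, 4.10, and 2.45 scaled RPM in mkkk17 and 1.94, 1.40, and 2.19 in mkkk18 (limma log2 fold change 0.69, SE 0.27, adjusted p = 0.408). The targeting strand miR396b-5p had an estimate of -0.10 (95% interval -0.53 to 0.32), with overlapping groups.

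Regulators of mineral nutrition included the largest positive estimates. For phosphate (miR399 targeting the E2 enzyme gene PHO2, miR827 targeting NLA, and miR2111), 9 of 10 listed entries were tested, with 6 positive, 3 negative, a median of 0.22, and 3 without overlap, all higher in mkkk17 (11.1% over all tested). Scaled miR2111b-3p was at 24.3, 15.3, and 15.9 in mkkk17 and at 12.2, 9.66, and 9.46 in mkkk18, above the WT Col-0 libraries (6.06, 7.57, and 4.26) in both mutants (mkkk17 against mkkk18: limma log2 fold change 0.77, SE 0.25, adjusted p = 0.384). Scaled miR399d was at 37.4, 26.6, and 39.1 against 21.4, 17.9, and 21.2, with WT Col-0 at 25.0, 20.4, and 16.5 (0.74, SE 0.23, adjusted p = 0.384). For miR399f the values were 18.1, 20.3, and 20.4 against 16.1, 13.6, and 13.1 (0.45, SE 0.21, adjusted p = 0.446). The most abundant member, miR399b, overlapped between the mutants (0.22), and so did miR827 (-0.31). The other tested miR2111 entries went the other way from miR2111b-3p. Estimates were -0.40 for its opposite arm miR2111a-5p and -0.41 for miR2111a-3p, with overlapping groups in both.

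MIR399d and MIR399f are also the annotated genes of tested miRNAs that lie nearest to MAPKKK17. In TAIR10.1 MAPKKK17 (AT2G32510) lies on chromosome 2 from 13798561 to 13800099, and the mature sequences of miR399d (14442988 to 14443008) and miR399f (14445084 to 14445104) lie 643 and 645 kb from it. Nearest to MAPKKK18 (AT1G05100, chromosome 1 from 1469541 to 1470881) was MIR847 at 695 kb, whose miRNA had an estimate of 0.25 and did not pass (limma adjusted p = 0.803). Scaled miR847 was low and did not overlap either, at 1.67, 1.48, and 1.63 in mkkk17 against 0.97, 1.40, and 1.44 in mkkk18. A match of the miR400 sequence lies closer, at 544 kb, but carries no miRNA gene in the annotation, and the match within MIR400 (AT1G32582) is on the same chromosome from 11785947 to 11785967.

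Sulfate supply is controlled by miR395, which targets ATP sulfurylases and a sulfate transporter. Of its 2 listed entries, 1 was tested, miR395b, at 5.72, 5.25, and 5.39 scaled RPM in mkkk17 and 2.40, 3.26, and 3.63 in mkkk18, without overlap (limma log2 fold change 0.74, SE 0.23, adjusted p = 0.384). The WT Col-0 mock libraries reached 12.9, 4.84, and 7.28, which took in the mkkk17 values. Copper-responsive miRNAs (miR397, miR398, miR408, and miR857) repress copper proteins such as laccases, plastocyanin-like proteins, and the superoxide dismutase CSD2. Among 8 of 9 listed that were tested, 5 were positive and 3 negative, with a median of 0.18, and 4 did not overlap, all higher in mkkk17 (11.1% over all tested): miR398a-3p, miR398a-5p, miR398b-5p, and miR408-3p. The class counts both arms of a hairpin, whichever of them targets copper proteins. For miR398b the 5p arm was the less abundant, exceeded by the 3p arm 60.7-fold to 87.7-fold in single libraries. Both miR398a arms were near the floor (0.7 to 1.9 RPM as deposited for the 3p arm). Scaled miR408-3p was at 242.1, 166.1, and 183.3 against 144.1, 145, and 130.7 (limma log2 fold change 0.48, SE 0.21, adjusted p = 0.446), while the abundant miR398b-3p was at 680, 719, and 570 against 575, 695, and 507 and overlapped.

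**Figure D4:**
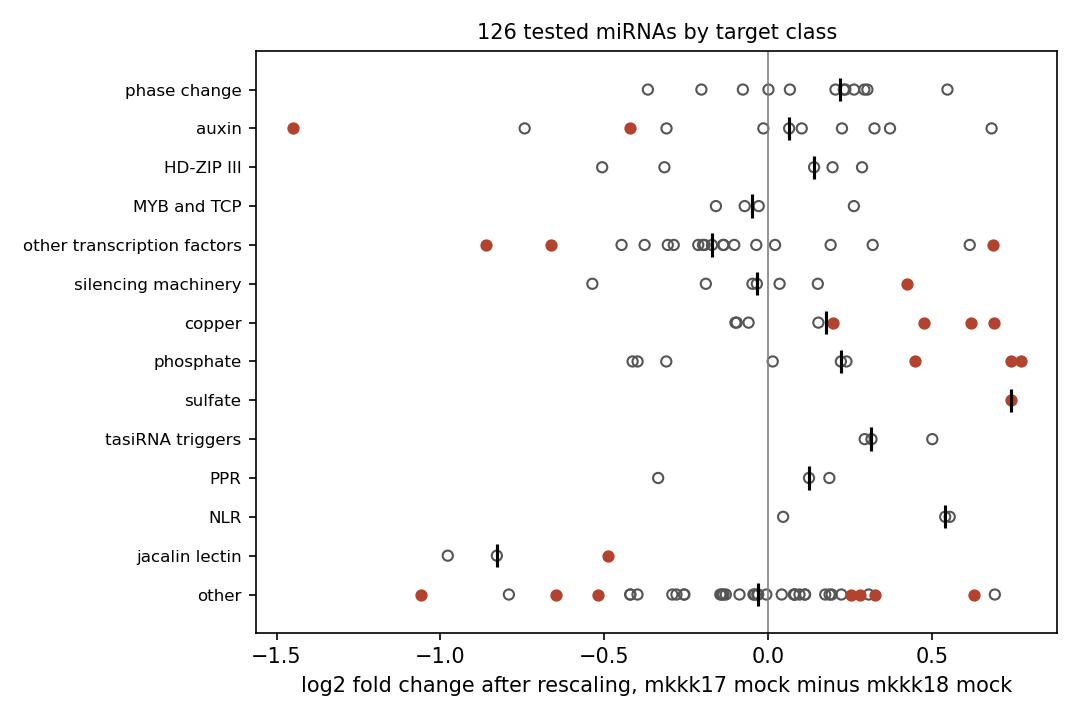
Log2 fold change after rescaling (mkkk17 mock minus mkkk18 mock) of each of the 126 tested miRNAs, grouped by the target class of their family. Filled points mark the 22 miRNAs whose libraries did not overlap between the mutants, open points the others, and the vertical bar the median of a class.

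Jacalin lectin regulators had the lowest median of the classes. miR842 and miR846 target jacalin-related lectin genes, and in TAIR10.1 their mature sequences lie close together on chromosome 1, miR842 from 22577194 to 22577214 and miR846-3p from 22577662 to 22577682. All 3 tested entries were negative (median -0.83), and 1, miR842, did not overlap, with mkkk17 lower (6.35% over all tested). As deposited miR842 was near the floor, at 0.6, 0.4, and 1.6 RPM in mkkk17 and 2.6, 3.0, and 2.3 RPM in mkkk18. Its mkkk17 mean of 0.87 RPM lay under the minimum of 1 RPM, which it reached through mkkk18. For miR846-5p the deposited mkkk17 values were 0.2, 0.6, and 5.8 RPM, the first of them below 3 reads. Scaled miR846-3p was at 27.9, 74.1, and 99.8 in mkkk17 and 129, 117, and 77.7 in mkkk18 (limma log2 fold change -0.83, SE 0.45, adjusted p = 0.568), the third library of each group reversing the order of the others. All 3 were called lower with RPM as deposited, where 10.3% of all tested were, and none after rescaling.

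Phase change regulators (miR156 and miR157, which hold back SPL factors, and miR172, which holds back AP2-like factors) had 12 of 19 entries tested, 9 positive and 3 negative, with a median of 0.22 and no entry without overlap. Their abundant member miR157a-5p was among the closest between the mutants, at 401, 420, and 433 against 385, 424, and 388 scaled RPM (log2 fold change 0.07, 95% interval -0.33 to 0.46). HD-ZIP III regulators had 3 positive and 2 negative of 5 (median 0.14), led by miR166a-3p at 0.29 (interval -0.16 to 0.74), and MYB and TCP regulators (miR159 and miR319) had 1 positive and 3 negative of 4 (median -0.05). For miR159a the interval was -0.50 to 0.45.

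Regulators of the silencing machinery itself target DCL1 (miR162), AGO1 (miR168), and AGO2 (miR403). Of 7 tested, 3 were positive and 4 negative (median -0.03), and 1 did not overlap (17.5% over all tested). That was miR168a-5p, at 89.0, 89.7, and 70.9 scaled RPM in mkkk17 and 64.0, 66.4, and 54.7 in mkkk18 (limma log2 fold change 0.42, SE 0.21, adjusted p = 0.523). Triggers of tasiRNAs (miR173 and miR390) were positive in 3 of 3 (median 0.32). The class of NLR immune receptors (entries of the families miR472 and miR825) was positive in 3 of 3. Those against PPR genes (miR161 and miR400) were positive in 2 of 3 (median 0.13), and the groups overlapped in all 9. Classes went by family number, so the NLR class took in both arms of miR472. Which strand targets receptor genes was not taken into account. Its median of 0.54 was the value of miR472-5p, beside 0.55 for miR472-3p and 0.05 for miR825. The first mkkk17 library carried the highest value in some of the 9, as in miR472-3p at 311, 97.7, and 94.3 against 86.3, 80.9, and 129. Without that library the miR472-3p estimate was -0.04.

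Where each library was divided by its own sum of listed miRNAs instead, the median of all tested miRNAs moved to -0.13, with 46 positive and 80 negative, and 0 were called (7 with an unadjusted p-value under 0.05). On that scale the medians of the auxin (-0.09), HD-ZIP III (-0.02), and PPR (-0.02) classes turned negative, and those of the phase change, phosphate, sulfate, copper, tasiRNA, and NLR classes stayed positive. The jacalin lectin class had 0 positive and 3 negative by median of ratios, trimmed mean, and share of the sum. These scales moved the median of all tested miRNAs little (0.01, -0.02, and -0.13), so signs of larger estimates could hardly change. As deposited all 126 tested miRNAs were negative, so that scale could give no other outcome.

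Outside these classes, 38 tested miRNAs had 17 positive and 21 negative estimates (median -0.03). The 24-nt miR163, which targets methyltransferases of the SABATH family, was at 223.2, 357.3, and 226.01 scaled RPM in mkkk17 and at 188.4, 158.9, and 162.01 in mkkk18, with WT Col-0 at 170, 203, and 212 (limma log2 fold change 0.63, SE 0.24, adjusted p = 0.408). Each mkkk17 library lay above each mkkk18 library. Scaled miR860 was at 0.48, 2.13, and 1.63 against 4.06, 2.73, and 2.88, also without overlap (-1.06, SE 0.38, adjusted p = 0.408), and its first mkkk17 value came from 0.2 RPM, which is below 3 reads. For miR5026 the values were 2.15, 2.95, and 5.07 against 6.35, 6.595, and 4.92, and the third mkkk17 library lay above the third mkkk18 library (-0.79, SE 0.31, adjusted p = 0.408).

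Ratios within a library were formed for 43 pairs of arms of 1 hairpin and 11 pairs of the largest and next entry of a family. In 10 of the 54 the groups did not overlap (18.5%), 5 higher and 5 lower in mkkk17, and these are given as a description, since with 3 against 3 libraries no exact permutation p can fall below 0.1 and no ratio could have passed. The widest positive difference was that of miR2111b-3p over miR2111a-5p, whose RPM stood at 6.80, 3.00, and 2.64 to 1 in mkkk17 and at 1.71, 1.49, and 1.60 to 1 in mkkk18 (difference 1.08 on the log2 scale, exact p = 0.1). For miR396b the 5p arm exceeded the 3p arm 48.4-fold, 41.4-fold, and 64.8-fold in mkkk17 and 83.6-fold, 124-fold, and 87.2-fold in mkkk18 (difference -0.99, exact p = 0.1). Arms of miR158a separated as well, with miR158a-3p over miR158a-5p at 2104, 1882, and 1597 against 1182, 1107, and 1143 (0.40), and so did miR165a-3p over miR165a-5p at 557, 529, and 448 against 359, 378, and 360 (0.38). In 4 of the 10 the pair contained miR156a-5p, so these were not independent of each other. The log2 ratios carried a pseudocount of 0.5 RPM, and without it 9 of the 10 still did not overlap in the same direction.

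In ABA-treated seedlings, which the mock comparison did not use, limma called 0 of 137 miRNAs between mkkk17 and mkkk18 after rescaling (10 with an unadjusted p-value under 0.05) and 2 as deposited (1.46%), miR846-5p and miR393b-3p, both higher in mkkk17. For miR167c-5p the ABA estimate was 0.15 (SE 0.41, limma adjusted p = 0.854), with scaled RPM of 2.70, 4.62, and 3.90 in mkkk17 and 4.85, 2.20, and 3.14 in mkkk18, so that the groups overlapped. Of the 10 miRNAs with the smallest p-values in mock, 8 had an ABA estimate of the same sign as in mock. Among the positive ones these ran from 0.07 for miR395b to 0.81 for miR396b-3p. The 2 with the other sign were miR167c-5p and miR164a (0.16). None of the 10 passed (limma adjusted p from 0.531 to 0.954). The share of same signs over all tested miRNAs is not given here, so the count of 8 has no background to be read against.

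The difference between the ABA and the mock contrast was tested over the 12 libraries of both mutants. After rescaling 0 of 131 miRNAs were called (14 with an unadjusted p-value under 0.05), and for miR167c-5p that difference was 1.61 (limma adjusted p = 0.222). With RPM as deposited 49 of the 131 were called (37.4%), all in the direction of a more positive ABA contrast, in a setting where the summed RPM of the mkkk17 ABA libraries (69640.7, 71634.0, and 48873.8) lay above those of all 3 mkkk17 mock libraries. Clipped reads were fewer in those ABA libraries (8958090, 7174834, and 8303130) than in mkkk17 mock (13539134 to 14199469). In mkkk18 they overlapped (6357465, 8873763, and 11601274 with ABA, 10664785 to 11811749 in mock). Within mkkk17 depth cannot be told apart from treatment, and its part in the 49 calls was not tested.

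**Figure D5:**
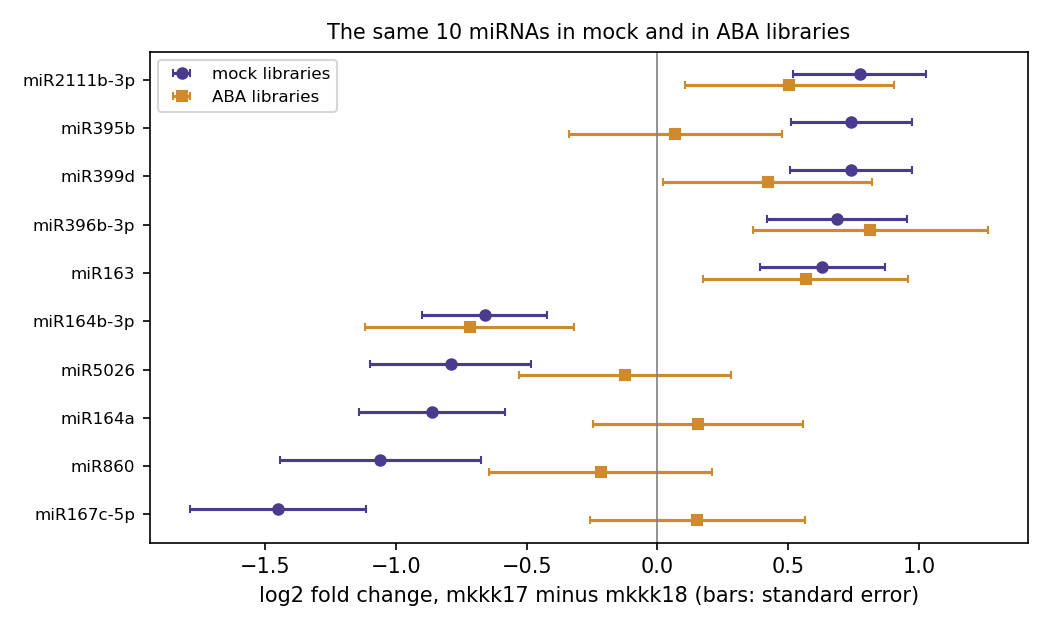
Log2 fold change of mkkk17 minus mkkk18 for the 10 miRNAs with the smallest p-values in mock, in the mock libraries (circles) and in the ABA libraries (squares), after rescaling; bars are standard errors. The miR167c-5p estimate is -1.45 in mock and 0.15 in ABA, and none of the values passed the test in either treatment.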

How the data were processed

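The authors sequenced small RNA of 24 seedling libraries, clipped adapters, discarded reads that were short or lacked an adapter, and catalogued the rest with mirPRo after a quality filter. They deposited RPM with 1 decimal for each library, neither pooled over replicates nor rescaled, and the total behind the RPM is not given in the sources used here. Groups were read from the labels. Rounding hides the whole reads, so no count test was run. Depth is the number of clipped reads in the supplementary material.

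RPM were divided by median-of-ratios factors. For miRNAs whose mean reached 1 RPM, log2(scaled RPM + 0.5) was fitted with limma 3.58.1 in R 4.3.3 (empirical Bayes with a trend, Benjamini-Hochberg over all tested, threshold 0.05) on the 6 mock libraries of both mutants, a scale that understates fold changes of low miRNAs. WT Col-0 and ABA libraries were put on the scale of these 6. The script was tested on simulated data. Single values were compared by exact permutation tests. Python 3.11.15 with NumPy 2.4.6, pandas 2.3.3, and matplotlib 3.10.9 made tables and plots. Mature sequences were placed on TAIR10.1 by exact matches, since no source used here names a build. The authors' own DESeq2 comparisons were not used.

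Named miRNAs are the 10 with the smallest p-values, the 12 largest, the lowest and highest of each of 13 target classes, the 5 with the smallest p-values called only as deposited, and the opposite arms of the first 10; others named in a class, a ratio, or a single-digit count were chosen after their values were seen. The comparison, the classes, and the named miRNAs were chosen with earlier results of these data known. Alternatives were RPM as deposited, scaling by trimmed mean or by share of the sum, pseudocounts of 0.1 and 1, no filter, a minimum of 5 RPM, a block for the replicate number, a GC correction with and without that block, robust moderation, fits of 12 and 24 libraries, and each library left out. The alternatives to the fit of RPM as deposited, the 10 miRNAs followed into ABA, and 3 ratios were chosen after seeing the data.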

Additional observations from a re-analysis of the deposited data

How the results depend on the processing

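After rescaling, 0 miRNAs were called by limma under the scalings by trimmed mean and by share of the sum, pseudocounts of 0.1 and 1, no filter, a minimum of 5 RPM, the GC correction, and robust moderation, with 7 to 25 at an unadjusted p-value under 0.05. A count of 1 came from the fits of 12 mock and of 24 libraries, 13 from RPM as deposited, and 0 to 4 from leaving out a library. With RPM as deposited, the 13 became 1 and 23 with pseudocounts of 0.1 and 1, 0 without a filter or with the minimum of 5 RPM, and 0 to 107 without a library. In the ABA contrast RPM as deposited gave 2 calls and in the difference of contrasts 49, both against 0. Detected miRNAs were 88 and 122 at 1 RPM. Ratios without overlap numbered 12 to 24 without a library. Depth limits miRNAs near 3 reads. The causes of these shifts were not tested.

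Of 819 alternative values for the 44 named miRNAs, 758 kept direction and side of the threshold, 17 kept direction and passed it, and 44 changed sign, none of them a called value after rescaling. With RPM as deposited the estimates that turned negative were miR395b (-0.27), miR399d (-0.39), miR2111b-3p (-0.34), miR163 (-0.52), miR396b-3p (-0.26), miR166a-3p (-0.87), miR158a-3p (-0.96), miR165a-3p (-1.02), miR167a-3p (-1.05), miR398b-3p (-1.002), miR157a-5p (-1.09), miR156f-3p (-0.28), miR161.1 (-0.97), miR167d (-0.46), miR168a-5p (-0.72), miR173-5p (-0.65), miR319c (-0.87), miR390a-3p (-0.75), miR398a-3p (-0.13), miR472-3p (-0.60), miR825 (-0.80). By share of the sum they were miR165a-3p (-0.016), miR167a-3p (-0.054), miR398b-3p (-0.0029), miR157a-5p (-0.090), miR825 (-0.080). Leaving out a library gave estimates on both sides of 0 for miR158a-3p (-0.047 to 0.42), miR165a-3p (-0.018 to 0.29), miR159a (-0.23 to 0.057), miR167a-3p (-0.10 to 0.29), miR319a (-0.31 to 0.16), miR161.2 (-0.89 to 0.43), miR397a (-0.50 to 0.33), miR472-3p (-0.038 to 0.82), miR825 (-0.25 to 0.19).

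Replicate numbers do not pair these libraries: the correlation of same-numbered deviations was -0.52, 0.06, and -0.44. With the replicate block 0 miRNAs were called, both after rescaling (7 with an unadjusted p-value under 0.05, and 8 with the GC correction added) and as deposited. The GC correction, with or without the block, changed the sign of miR165a-3p (-0.0041), miR159a (0.00029).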
